A study of Homo sapiens with 24 samples.

Results

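The 16S mt-rRNA is the large-subunit RNA of the mitoribosome, and its 5′ part is described here in HEK293T-derived cells with and without the 2′-O-methyltransferases MRM1, MRM2 and MRM3. The members are its first 900 nucleotides, chosen by position alone, of 15416 transcript positions in the whole table; a further 659 positions of the same rRNA lie downstream. They lie at chrM:1671-2570 on the plus strand (mitochondrial chromosome of GRCh38) in the exon of MT-RNR2, directly downstream of the mt-tRNA Val gene at 1602-1670. None of the 2′-O-methylated residues G2815, U3039 and G3040 lies among them. Positions are named by their base and mtDNA number, which is the transcript position plus 1670.

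The 16S mt-rRNA is transcribed from the mtDNA as part of a long polycistronic precursor and is released when the flanking mt-tRNAs are excised. Its 3′ part forms the peptidyl transferase centre, where MRM1 methylates G2815, MRM2 methylates U3039 and MRM3 methylates G3040. A ribose with a 2′-O-methyl group resists alkaline hydrolysis, so fewer fragments have their 3′ end there, which gives a high cleavage protection score. It also halts reverse transcriptase when dNTPs are scarce, so more cDNAs end 1 nucleotide downstream in low than in high dNTPs, which gives a high RT-stop score.

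RNA of mitochondria-enriched fractions came from the parental HEK293T Flp-In T-REx line, a human embryonic kidney cell line with a site for transgene insertion, and from lines of that background in which MRM1, MRM2 or MRM3 had been knocked out. Each of the 4 lines was represented by 3 plates, and the ligated RNA of each plate was reverse transcribed with 500 μM and with 2 μM dNTPs, giving 24 libraries. Plates of 1 line are not separate lines, so the p-values reflect plate-to-plate spread. Knock-out cells made in the study were kept with more serum and added uridine, the MRM1 and MRM3 knock-out lines were provided by others, and each knock-out is 1 line, so line, origin and medium cannot be told apart. The sample titles gave the lines, and in 18 of 24 samples another field of the labels named a different genotype. The nuclear MRM genes could not be read because reads were aligned to the mitochondrial chromosome. The methylated residues followed the titles: the cleavage protection score of G2815 was 0 in all MRM1 knock-out libraries against 0.418 to 0.632 in parental cells, that of U3039 was 0 in all MRM2 knock-out libraries, and also in all MRM3 knock-out libraries, against 0.256 to 0.372, and that of G3040 was 0.00548 to 0.155 in MRM3 knock-out libraries against 0.780 to 0.887.

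Libraries held 162673 to 807322 reads at 500 μM and 483960 to 4048537 at 2 μM. The thinnest of the 900 positions was covered by 2082 to 10248 reads per library at 500 μM, and by 30 to 572 at 2 μM. Mean length of the sequenced cDNAs over the 16S mt-rRNA, the summed coverage divided by the 5′ ends, was 130.5 to 162.5 nt at 500 μM. At 2 μM it was 54.5 to 58.3 nt. Both libraries of a plate came from the same fragmented RNA, so these are not lengths of the RNA fragments.

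The sequences below carry the results that follow and were read from the deposited table, whose bases matched the reference at every position of the 16S mt-rRNA. The first holds the 5′ end of the rRNA, with the positions of high RT-stop score A1675, C1682 and A1697 in capitals. The second holds, in capitals, the stretch with the lowest coverage at 2 μM dNTPs. The others have the named position in capitals. G2440 had the highest mean cleavage protection score. A2029 and G2403 had the most 3′ ends relative to their flanks. A2060 had the second highest RT-stop score. A2073 had lower RT-stop scores in MRM3 knock-out cells, a difference that passed the test by edgeR but not by limma.
chrM:1671-1700: gcuaAaccuagCcccaaacccacuccAccu
chrM:2118-2162: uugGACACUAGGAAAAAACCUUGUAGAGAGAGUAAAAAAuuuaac
G2440, chrM:2430-2450: acacaggcauGcucauaagga
A2029, chrM:2019-2039: guuguccaagAuagaaucuua
G2403, chrM:2393-2413: caaccaacaaGucauuauuac
A2060, chrM:2050-2070: aaauuugcccAcagaacccuc
A2073, chrM:2063-2083: gaacccucuaAauccccuugu

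Coverage of the 5′ part fell into a deep gap at 2 μM that was not seen at 500 μM. At 500 μM the mean coverage of a 100-nt window in parental cells ranged from 10072 reads at 1 to 100 to 24045 at 301 to 400, with 14568 at 501 to 600. Positions 1 to 900 held 42.0% to 46.5% of the 5′ ends of the 16S mt-rRNA at 500 μM and 49.4% to 59.3% at 2 μM. The share was higher at 2 μM in all 12 plates, by a mean of 9.26 percentage points (paired exact permutation test over 12 plates, two-sided p = 0.000488, the smallest it can give; adjusted p = 0.00251 over 36 exact tests). Mean coverage over positions 1 to 900 was 0.480 to 0.565 of that over the 659 positions downstream at 500 μM and 0.650 to 1.00 at 2 μM. The ratio was higher at 2 μM in all 12 plates (mean difference 0.249, paired exact permutation test, p = 0.000488, adjusted p = 0.00251).

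The gap at 2 μM was deepest between positions 451 and 486 (mtDNA 2121 to 2156). These 36 nt hold 19 A and end in a run of A, and were delimited after the coverage was seen, as the positions with fewer than 1 read per 1000 16S reads in the mean of every line. Their mean coverage at 2 μM was 829, 491 and 392 reads in the parental libraries, 272, 258 and 80.2 in MRM1 knock-out, 137, 91.2 and 44.9 in MRM2 knock-out, and 74.0, 72.3 and 266 in MRM3 knock-out libraries. That was 2.48% to 4.97% of the coverage of the 30 nt upstream, in each of the 12 libraries. At 500 μM the same stretch had 75.5% to 84.6% of the upstream coverage, so the levels at both dNTP concentrations did not overlap. Reads resumed sharply at its downstream edge. The 5′ ends at the next 2 nt made up 90.3% to 94.2% of the coverage there at 2 μM and 4.15% to 6.08% at 500 μM.

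**Figure D1:**
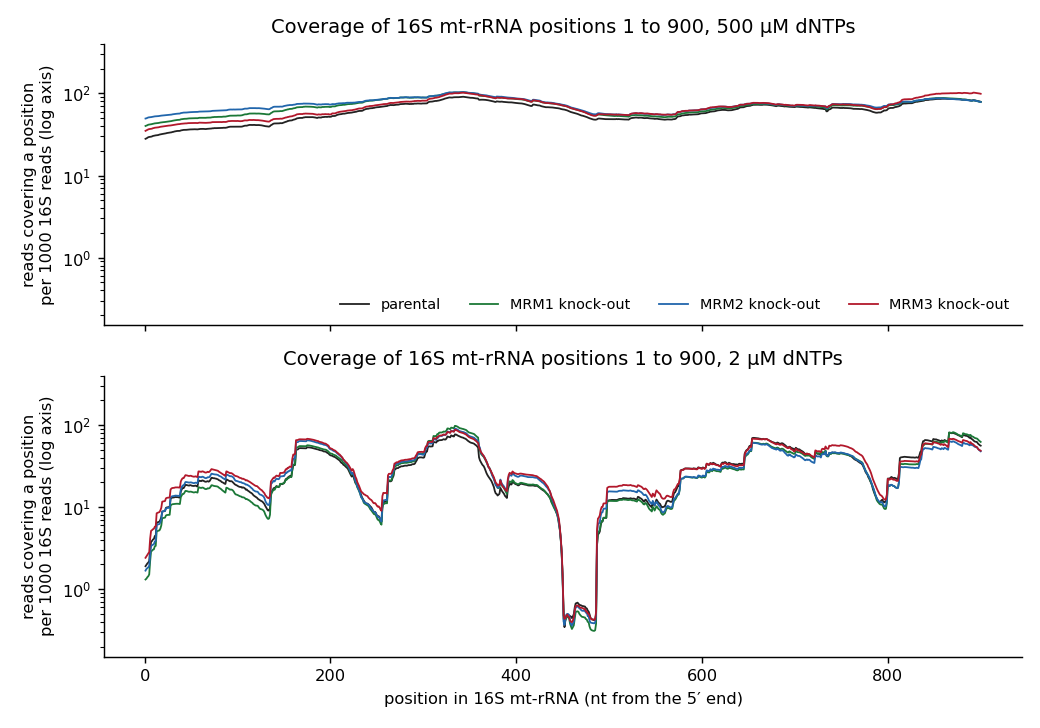
Coverage of 16S mt-rRNA positions 1 to 900 (x axis, nt from the 5′ end) as reads covering a position per 1000 16S reads (y axis, log scale), mean of 3 libraries per line, at 500 μM (top) and 2 μM dNTPs (bottom). At 2 μM the 4 lines fall together below 1 read per 1000 between positions 451 and 486.

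The 100-nt windows showed the same redistribution in the share of the 16S 5′ ends that each holds. Of the 9 windows, 8 differed between 2 μM and 500 μM (edgeR, window against the other windows of its transcript with the plate as block), where 83.1% of all windows tested did; 4 were higher and 4 lower, against 41.5% of all windows in each direction. The share of the count called among the members was thus near that of all windows. With 3′ ends in place of 5′ ends all 9 were called, 7 higher and 2 lower, where 120 of 146 windows were called. The even split thus depended on the end type. Window 601 to 700 held 3.73% to 4.85% of the 16S 5′ ends at 500 μM and 6.25% to 9.90% at 2 μM (log2 difference 0.89, edgeR adjusted p = 4.16e-23). Window 401 to 500, which includes the gap, held 2.82% to 3.66% at 500 μM and 1.36% to 2.12% at 2 μM (log2 difference -0.86, edgeR adjusted p = 1.63e-20). In both windows the 12 libraries at one concentration did not overlap those at the other. Window 701 to 800 was the one without a call (log2 difference 0.14, edgeR adjusted p = 0.0896).

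The mature 5′ end of the rRNA was read mostly at high dNTPs. At 500 μM, 2.37%, 2.11% and 3.92% of the 16S 5′ ends of the parental libraries lay at position 1. The values were 4.95%, 3.30% and 3.79% in MRM1 knock-out, 3.88%, 4.41% and 6.54% in MRM2 knock-out, and 4.44%, 4.23% and 1.82% in MRM3 knock-out libraries. At 2 μM the share was 0.118% to 0.297%, lower in all 12 plates (paired exact permutation test, p = 0.000488, adjusted p = 0.00251). Each knock-out overlapped the parental range at 500 μM. At 2 μM the MRM1 knock-out libraries, at 0.134%, 0.118% and 0.141%, lay below the parental ones at 0.197%, 0.171% and 0.203% without overlap, whereas the other lines overlapped them (exact permutation test, p = 0.1, the smallest for 3 against 3; adjusted p from 0.240 to 0.675 over the 6 comparisons). With 3 against 3 the exact permutation test cannot show a difference at 0.05.

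RT stops at 2 μM fell mainly on adenosines. The RT-stop score, the stop ratio at 2 μM divided by that at 500 μM of the same plate, was tested at 878 of the 900 positions, those with at least 50 reads downstream in all 24 libraries. At 249 of them (28.4%) it lay at least 1 on the log2 scale above the plate median, against 28% of the 11971 positions of the whole table (limma, adjusted p under the threshold of 0.05), and at 326 it lay as far below. The total was therefore close to the background, but its make-up was not even. A made up 208 of the 249 positions (83.5%) and 37.7% of those tested. Of 331 tested A, 62.8% were called, against 7.42% of 229 C, 8.27% of 133 G and 7.03% of 185 U. In the downstream 659 positions the shares were 67.6% of A, 12.5% of C, 27.9% of G and 21.8% of U.

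Per plate, the median log2 RT-stop score at A exceeded that at the other bases by 2.69 to 3.27 (mean 2.95, higher in 12 of 12 plates; exact permutation test, p = 0.000488, adjusted p = 0.00251). The same gap downstream of position 900 averaged 2.56, and the gap was wider in the 5′ part in all 12 plates by 0.20 to 0.63 (paired exact permutation test, p = 0.000488, adjusted p = 0.00251). By line the gap averaged 2.92 in parental, 3.07 in MRM1, 2.97 in MRM2 and 2.84 in MRM3 knock-out plates (exact permutation tests of 3 against 3, which cannot pass 0.05, adjusted p from 0.554 to 0.741). In stop ratios, the median A was at 0.496% to 0.770% per library at 500 μM and at 1.78% to 2.13% at 2 μM, with no overlap. The median C went the other way, from 0.375% to 0.606% at 500 μM down to 0.122% to 0.202% at 2 μM. Within runs of 4 or more, the 52 A had a median log2 RT-stop score of 2.17 to 3.18 per plate, and the 279 A outside such runs one of 1.21 to 1.89.

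**Figure D2:**
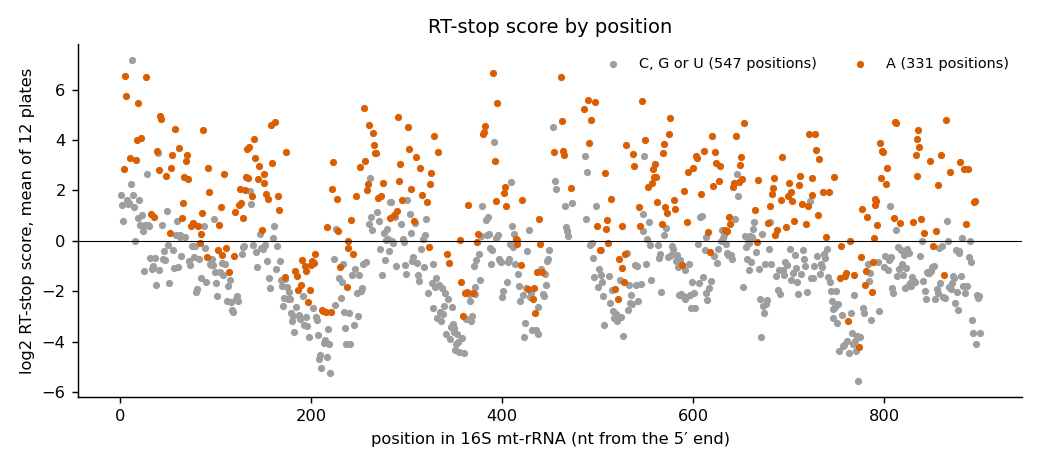
Log2 RT-stop score (y axis, mean of 12 plates) at the 878 tested positions of 16S mt-rRNA 1 to 900 (x axis, nt from the 5′ end), with the 331 A in orange and the other bases in grey. The A lie mostly above 0 and the other bases mostly below.

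The position with the highest RT-stop score was not an A. At C1682, position 12, the log2 RT-stop score was 6.65, 6.56 and 8.12 in parental, 7.93, 6.98 and 7.01 in MRM1 knock-out, 7.66, 7.70 and 8.32 in MRM2 knock-out, and 7.19, 6.58 and 5.33 in MRM3 knock-out plates. Every plate was thus high, and the lines overlapped. The stop ratio there was 0.110% to 0.577% at 500 μM and 23.3% to 40.4% at 2 μM. It is the first of a run of C close to the end of the rRNA, and lay 7.21 ± 0.18 (SE) above the plate median (limma, adjusted p = 1.42e-13). The other C with high values were C2123 at 4.54 and C2061 at 3.96 above the plate median, named after their values were seen.

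The next 4 positions were A2060, A1675, A2132 and A1697, at 6.70, 6.56, 6.52 and 6.51 above the plate median (limma, adjusted p from 2.82e-14 to 1.91e-13). At A2060 the stop ratio was 0.196% to 0.412% at 500 μM and 20.6% to 35.7% at 2 μM, from 542 to 5136 stops per library. All 12 plates were alike in this, with log2 RT-stop scores of 6.22 to 7.23. A2132 lies inside the gap described above, so its stop ratios at 2 μM rest on coverage of only 51 to 960 reads. At G2815, outside the stretch, the score was lower in MRM1 knock-out than in parental cells (log2 difference -5.82, limma adjusted p = 6.89e-06). At the 5 highest positions of the 5′ part no difference from parental passed the test in any knock-out. The one whose unadjusted interval excluded 0 was A1697 in MRM2 knock-out cells, at 1.28 (95% interval 0.16 to 2.39, limma adjusted p = 0.276). The intervals for MRM2 knock-out cells were -0.52 to 1.03 at A2060 and -0.39 to 1.95 at C1682, on the log2 scale.

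At no position of the 5′ part did the cleavage protection score pass the test between a knock-out and parental cells. A score could be computed in all 12 libraries at 500 μM for 670 positions, and 725 to 870 positions were scored per library, fewest in MRM3 knock-out replicate 1. The 213 positions with a score above 0 in at least 3 libraries were tested. There were 0 calls in each knock-out by limma and by edgeR on the 3′ ends. Over the 641 positions tested in the whole table, limma called 0.156%, 0.156% and 0.312% in MRM1, MRM2 and MRM3 knock-out cells. At an unadjusted p under 0.05 limma had 7, 16 and 11 positions of the 5′ part. These were 3.29%, 7.51% and 5.16% of those tested, against 3.12%, 7.49% and 3.90% of the whole table. The differences ranged from -0.21 to 0.18.

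Scores above 0 were nonetheless present in the 5′ part, and the 5 highest means of the 670 positions were all at a G. As given below, G had fewer 3′ ends than the other bases in all 12 libraries. Fewer 3′ ends give a higher score, so both values come from the same counts. Whether the base accounts for these scores, and whether these positions are modified, was not tested. At G2440, position 770, the score was 0.395, 0.307 and 0.260 in parental, 0.431, 0.269 and 0.500 in MRM1 knock-out, 0.358, 0.243 and 0.448 in MRM2 knock-out, and 0.230, 0.603 and 0.307 in MRM3 knock-out libraries. The lines overlapped fully, and the mean over the 12 libraries was 0.363. The difference from parental was 0.0791 (95% interval -0.126 to 0.284) in MRM1 knock-out, 0.0285 (-0.177 to 0.234) in MRM2 knock-out and 0.0589 (-0.146 to 0.264) in MRM3 knock-out cells (limma, adjusted p = 1, 0.977 and 0.970). The score at G2440 rests on 7 to 66 reads with their 3′ end there, at 15.5% to 45.3% of the mean of the 12 flanking positions. At 2 μM, where 29 to 621 reads ended there, the level was 23.2% to 58.0% of the flanks. Its RT-stop score was low, at -3.92 ± 0.18 (SE) relative to the plate median.

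The other 4 were G1886, G2345, G2022 and G2056, with mean scores of 0.285, 0.208, 0.202 and 0.180. G1886 and G2345 were at 0 in MRM3 knock-out replicate 1 and above 0 in the other 11 libraries. At both, the MRM1 knock-out libraries lay above the parental ones, at 0.321 to 0.448 against 0.221 to 0.316 for G1886 and at 0.274 to 0.330 against 0.158 to 0.211 for G2345. Neither difference passed the test (limma, 0.115 ± 0.0979 and 0.121 ± 0.0721 (SE), adjusted p = 1 each). Only 5 of the 670 positions were above 0 in all 12 libraries, namely G1932, G2022, G2056, A2412 and G2440, while 314 were at 0 in all 12. The highest score was 0.872 in parental replicate 1 and 0.871 in parental replicate 2, against 0.330 to 0.603 in the other libraries. In parental replicate 1 it came at a position where no read had its 3′ end. That position is near the 5′ end of the rRNA, where 3′ ends are few.

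The smallest p for protection belonged to A1994, position 324. Its score was 0.0825, 0.0589 and 0.0847 in parental libraries and 0 in all 9 knock-out libraries. Negative scores are set to 0, so the 0 values lie at a floor and show no spread. The groups did not overlap, but the difference of -0.0753 ± 0.0184 (SE) did not pass the test in any knock-out (limma, adjusted p = 0.254 in MRM1, 0.254 in MRM2 and 0.169 in MRM3 knock-out cells). Without parental replicate 2 it did, at adjusted p = 0.0194, 0.0194 and 0.0129. Since the same 3 parental libraries serve in all comparisons, these are not separate observations. On the score before truncation at 0, with all libraries, no position of the 5′ part passed the test. The smallest adjusted p of limma was then 0.999 in MRM1, 0.162 in MRM2 and 0.512 in MRM3 knock-out cells.

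**Figure D3:**
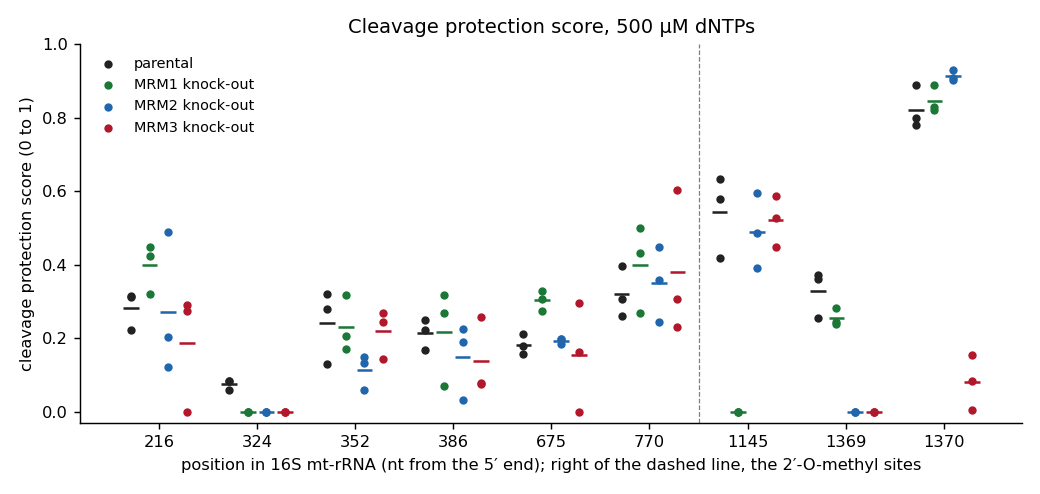
Cleavage protection score (y axis, 0 to 1) at 6 positions of the 5′ part and at the 2′-O-methylated residues (x axis, nt from the 5′ end; right of the dashed line), with 1 point per library at 500 μM and a line at the mean of 3. At position 324 the 9 knock-out libraries are at 0, at 216 and 675 the MRM1 knock-out libraries lie above the parental ones, and positions 1145, 1369 and 1370 are low in the lines that lack their enzyme, 1369 in MRM3 knock-out cells too.

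The number of 3′ ends varied with the base. In the 500 μM libraries the median number of 3′ ends relative to the flanks was 0.643 to 0.797 at G, 0.940 to 1.10 at C and 1.07 to 1.13 at U. G lay below the other bases in all 12 libraries by a mean of 0.240 (exact permutation test, p = 0.000488, adjusted p = 0.00251). Positions followed by G had more 3′ ends, with medians of 1.20 to 1.52, against 0.729 to 0.818 before C. The difference between positions before G and before other bases averaged 0.415 and was positive in 12 of 12 libraries (exact permutation test, p = 0.000488, adjusted p = 0.00251). Both contrasts differed from those downstream of position 900 by less than the spread between libraries (paired exact permutation tests, adjusted p = 0.291 and 0.546). Pyrimidines followed by A had medians of 1.05 to 1.16. Profiles of 3′ ends along the 670 positions were correlated between libraries of a line. The median Pearson's r was 0.868 in parental, 0.804 in MRM1, 0.696 in MRM2 and 0.573 in MRM3 knock-out cells. In the same order, mean 5′ ends in positions 1 to 900 at 500 μM were 121421, 76225, 32587 and 36081. Whether depth underlies the order of r was not tested. The RT-stop profiles along 878 positions gave 0.963, 0.953, 0.931 and 0.925. Both are correlations across positions that share base composition.

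Relative to their flanks, 3′ ends were most frequent at G2403 and A2029, both well above all other positions scored. At A2029, position 359, the 3′ ends at 500 μM were 825%, 692% and 1337% of the flanking mean in parental, 1314%, 985% and 983% in MRM1 knock-out, 442%, 572% and 618% in MRM2 knock-out, and 545%, 484% and 310% in MRM3 knock-out libraries. All libraries were high, and those of the MRM2 and MRM3 knock-out lines lay below those of parental and MRM1 knock-out cells without overlap. The peak was present at 2 μM too, at 228% to 1350%. The stop ratio at A2029 was 3.39%, 3.71% and 5.42% in parental, 4.35%, 3.61% and 3.50% in MRM1 knock-out, 1.50%, 1.65% and 2.03% in MRM2 knock-out, and 1.84%, 2.07% and 1.16% in MRM3 knock-out libraries at 500 μM. It was again lower, without overlap, in MRM2 and MRM3 knock-out cells. The difference passed the test in MRM2 knock-out cells (log2 difference -1.25 ± 0.28 (SE), limma adjusted p = 0.0324, where 3.33% of all 11971 positions were called) and missed it in MRM3 knock-out cells (-1.32 ± 0.28, adjusted p = 0.105, where 0% were called). At 2 μM the stop ratio was 0.177% to 0.539%.

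At G2403, position 733, the 3′ ends at 500 μM were 584% to 1421% of the flanking mean in parental, 888% to 1595% in MRM1 knock-out, 748% to 1325% in MRM2 knock-out and 232% to 579% in MRM3 knock-out libraries. The MRM3 knock-out libraries lay below all others. The stop ratio at G2403 at 500 μM was 0.370% to 2.47%, which overlaps the range at A2029. The remaining 3 positions were U2559, G1868 and A1938, with means of 227%, 210% and 193% of the flanks. The 5 positions with most 5′ ends relative to the flanks at 500 μM were U2485, U1975, A2406, U2360 and U2158, at means of 459%, 350%, 348%, 347% and 346%. At U2485 the 12 libraries ranged from 392% to 553%, and the lines overlapped.

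**Figure D4:**
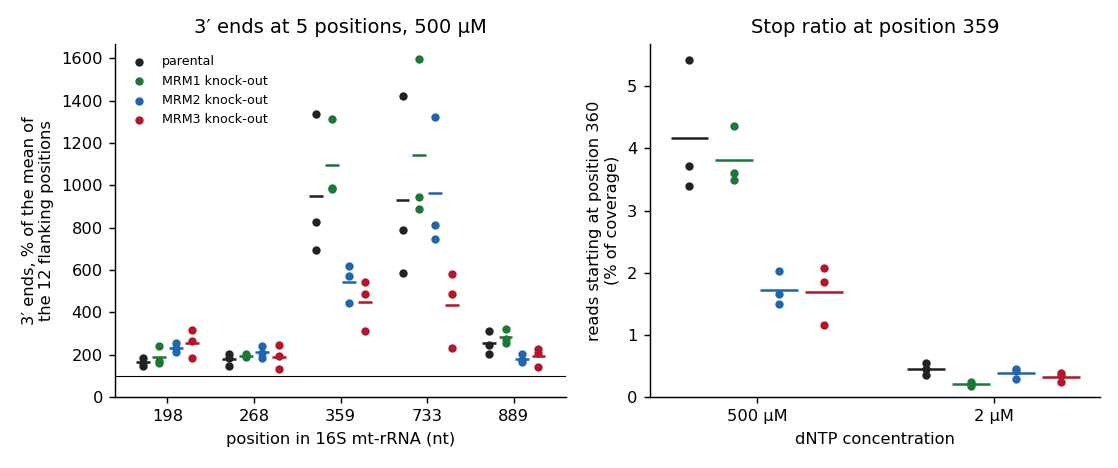
Left, 3′ ends at 500 μM as a percent of the mean of the 12 flanking positions (y axis) at the 5 positions with the most (x axis, nt from the 5′ end). Right, stop ratio at position 359 in percent (y axis) at both dNTP concentrations; points are libraries and lines are means of 3, and the MRM2 and MRM3 knock-out libraries lie below the others at 500 μM.

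The RT-stop score passed the test between a knock-out and parental cells at none of the 878 positions by limma. There were 0 calls in each comparison, with 16, 81 and 38 positions at an unadjusted p under 0.05 in MRM1, MRM2 and MRM3 knock-out cells; over all 11971 positions 0.00835%, 0% and 0.00835% were called. edgeR on the stop counts, with coverage as offset, called 2, 7 and 1 positions, against 0.184%, 1.03% and 0.184% of all positions. The call depended on the tool. In MRM1 knock-out cells the calls of edgeR were U2021 (log2 difference -1.92, adjusted p = 0.0307) and A2029 (-0.98, adjusted p = 0.0377), both lower. In MRM2 knock-out cells all 7 were higher, namely A1688, A1757, A1828, A2029, C2283, A2556 and G2560, with log2 differences from 1.01 to 2.28. The scores of that line were higher at 596 of the 878 positions, and whether this was particular to the 5′ part was not tested. The median log2 difference by limma was 0.23, and 73 of the 81 positions with an unadjusted p under 0.05 were higher. At A2029 the numerator and denominator differed: the MRM2 knock-out call follows the lower stop ratio at 500 μM given above, whereas in MRM1 knock-out cells the ratio at 2 μM was lower, at 0.177% to 0.239% against 0.354% to 0.539%.

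The position with the strongest call of these was C2283. Its stop ratio at 2 μM was 0.480%, 0.450% and 1.05% in parental and 1.25%, 1.88% and 1.77% in MRM2 knock-out libraries, without overlap. At 500 μM it was 0.708% to 1.14% in parental and 0.718% to 0.970% in MRM2 knock-out libraries, which overlapped (edgeR, RT-stop counts, log2 difference 1.54, adjusted p = 0.000138).

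A2073, position 403, had the smallest p of limma for the RT-stop score in MRM3 knock-out cells. Its log2 RT-stop score was 2.41, 2.70 and 2.61 in parental, 2.99, 2.18 and 2.17 in MRM1 knock-out, 2.20, 2.66 and 2.31 in MRM2 knock-out, and 0.71, 1.16 and 1.35 in MRM3 knock-out plates. The MRM3 knock-out plates lay below all 9 others. By limma the difference of -1.50 ± 0.36 (SE) missed the threshold (adjusted p = 0.344), and by edgeR on the stop counts it passed (-1.44, adjusted p = 0.00293). The stop ratio at 2 μM was 0.986%, 1.23% and 1.78% in MRM3 knock-out against 2.77% to 2.96% in parental libraries, from 35 to 172 and 434 to 757 stops.

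The smallest p of limma in MRM1 knock-out cells was at A2039, with log2 RT-stop scores of -1.94, -1.94 and -1.22 in parental and -3.08, -3.14 and -2.77 in MRM1 knock-out plates (difference -1.29 ± 0.44 (SE), adjusted p = 0.572). In MRM2 knock-out cells it was at G2143 in the gap, where the difference was 4.11 ± 0.71 (SE; adjusted p = 0.0863). At G2143 there were 0 stops in all 12 libraries at 2 μM, on a coverage of 950, 578 and 459 reads in parental and 158, 105 and 50 in MRM2 knock-out libraries. The score there is thus the 1 added to the counts over the coverage, and is no measure of stops. Of the 878 positions, 162 had 0 stops at 2 μM in at least 1 library. The stop ratio at 2 μM alone was called higher at 8 of the 878 positions in MRM2 knock-out cells, where 5.2% of all positions were called. Of these 8, 5 lie in the gap, and 6 had at most 2 stops in every MRM2 knock-out library.

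Reads of the 5′ part made up less of the libraries of MRM3 knock-out cells. All 9 windows held fewer 5′ ends at 500 μM than in parental cells by edgeR, with log2 differences of -1.28 to -0.97 and a median of -1.16; over all 160 windows 22.5% were lower and 33.1% higher, 55.6% in all. At 2 μM all 9 were lower, with a median of -1.09, where 24.4% of all windows were lower and 25.6% higher, 50% in all. Window 601 to 700 held 1.93%, 2.11% and 1.84% of the 5′ ends of the library in parental and 1.14%, 1.13% and 1.09% in MRM3 knock-out libraries at 500 μM (log2 difference -1.28 ± 0.13 (SE), edgeR adjusted p = 6.07e-06). The groups did not overlap. At 500 μM the 7 windows downstream of position 900 had a median of -1.37, all called lower, and the 10 windows of the 12S mt-rRNA one of -0.14, with none called. At 2 μM 6 of the 7 downstream windows and 2 of the 10 12S windows were called lower, with medians of -1.48 and -0.15. Values are relative to the other transcripts of the library, so less 16S mt-rRNA and more of the others cannot be told apart. Scaling to the library total in place of TMM raised the median log2 difference of all windows from -0.05 to 0.43 at 500 μM and from 0.01 to 0.45 at 2 μM. The median of the 9 windows was then -0.69 and -0.66, with 9 called lower at 500 μM and 3 at 2 μM.

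MRM1 and MRM2 knock-out cells had 0 of 9 windows called by edgeR at either concentration, with 2 and 1 at an unadjusted p under 0.05 at 500 μM and 1 and 3 at 2 μM. Among all windows 0% were called in MRM1 knock-out cells at either concentration. In MRM2 knock-out cells 43.1% were called at 500 μM, 23.1% higher and 20% lower, and 39% at 2 μM, 22.6% higher and 16.5% lower. DESeq2 called 0 windows in MRM1 knock-out cells, and in MRM2 knock-out cells 1 at 500 μM and 3 at 2 μM, all lower. At 500 μM the median log2 differences over the 9 windows were 0.24 in MRM1 and -0.05 in MRM2 knock-out cells, against 0.23 and -0.06 over the 7 windows downstream.

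**Figure D5:**
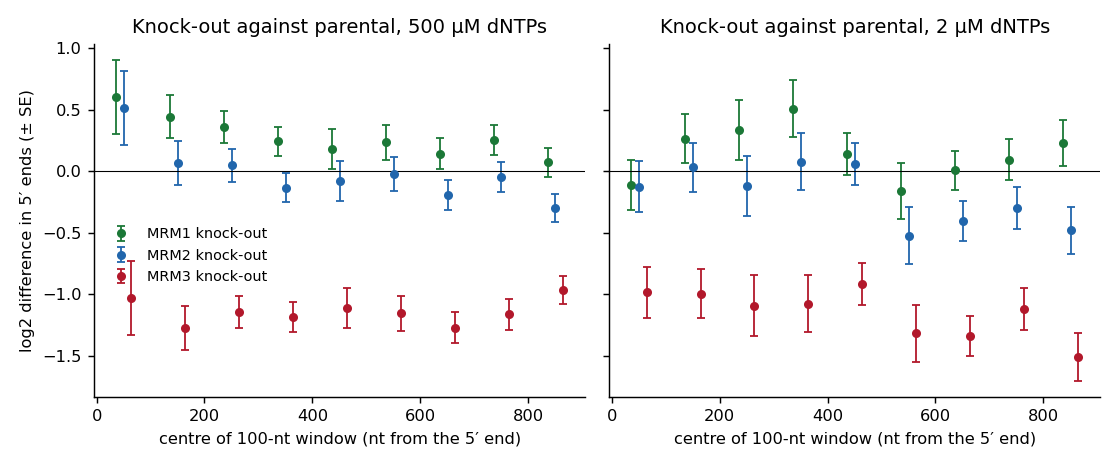
Log2 difference in 5′ ends between each knock-out and parental cells (y axis, ± SE, edgeR) in the 9 windows of 100 nt (x axis, window centre in nt from the 5′ end) at 500 μM (left) and 2 μM dNTPs (right). The 9 MRM3 knock-out values lie between -1.28 and -0.97 at 500 μM, those of MRM1 knock-out cells between 0.07 and 0.61, and those of MRM2 knock-out cells between -0.30 and 0.51.

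The distribution of reads within the 16S mt-rRNA was compared by window. The only one of the 9 windows whose share of the transcript passed the test was window 1 to 100 in MRM2 knock-out cells at 500 μM, which held 4.30%, 3.999% and 5.89% of the 16S 5′ ends in parental and 5.98%, 6.40% and 8.69% in MRM2 knock-out libraries (log2 difference 0.57, edgeR adjusted p = 0.0147). The groups were separated narrowly. Position 1 alone accounted for much of this in the means, at 2.80% in parental and 4.94% in MRM2 knock-out libraries, where the whole window held 4.73% and 7.03%. Over all windows in that comparison 13.8% were called, 5.07% higher and 8.7% lower. In the other 5 comparisons of knock-out and dNTP level 0 of the 9 windows were called. The share of all windows called was 0.725% in MRM1 and 1.45% in MRM3 knock-out cells at 500 μM, and 0.704% in each knock-out at 2 μM. The call was lost without parental replicate 1, parental replicate 2 or MRM2 knock-out replicate 3, and with 3′ ends the difference was -0.29.

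The share of 16S 5′ ends in positions 1 to 900 was 42.1%, 42.1% and 42.0% in parental, 43.3%, 43.4% and 44.7% in MRM1 knock-out, 44.7%, 42.0% and 43.1% in MRM2 knock-out, and 46.5%, 45.2% and 45.2% in MRM3 knock-out libraries at 500 μM. The MRM1 and MRM3 knock-out values all exceeded the parental ones, by means of 1.72 and 3.54 percentage points (exact permutation tests, p = 0.1 each, the smallest for 3 against 3, adjusted p = 0.240 each). Each of these separations was lost under an alternative given below. At 2 μM the mean difference was -0.854 in MRM1 knock-out cells, which overlapped parental, and 4.25 in MRM3 knock-out cells, without overlap (p = 0.6 and 0.1, adjusted p = 0.675 and 0.240, exact permutation tests). The last position and the one after it did not differ visibly. Coverage at 500 μM was 4968 to 26750 reads at C2570, the last position, and 4914 to 26507 at G2571, the first outside. Further downstream, at A2617, which is known to carry a 1-methyladenosine, 21.7% to 51.0% of reads stopped at 500 μM, more than at any of the named positions of the 5′ part.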

How the data were processed

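Read pairs were aligned by the authors to chrM of GRCh38 (STAR 2.5.3a and GRCh38.p13 in the submitters' processing notes). They deposited raw counts of read ends and coverage per transcript position. The cleavage protection score (3′ ends against 6 flanking positions on each side, minimum median of 15 reads, negative values set to 0) and the stop ratio (1 added to stops and coverage) are fractions made by the authors. Coverage followed from the ends in all 369984 values only when the column of read ends was taken as 5′ ends; 369096 stop ratios and 36703 scores were recovered within 1e-12. The deposited p-values of the authors' own comparisons (t tests and chi-square tests) were not used.

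Scores were tested with limma 3.58.1 (moderated variance with trend, 12 libraries or plates in 1 fit), windows and stop counts with edgeR 4.0.16 (TMM for windows, quasi-likelihood; window shares by its differential splicing test), in R 4.3.3. Windows needed 10 reads in 3 libraries. Tests were two-sided, adjusted after Benjamini and Hochberg over all positions or windows of the table. Single values per library were compared by exact permutation tests, adjusted over 36 tests. Scripts were tested on simulated data. Depth per library is given with the results; the sources used here name no molecular identifiers, and the 95% intervals cover the spread between plates. The 24 pairs of libraries within a group all differed beyond sampling noise (lowest chi-square per degree of freedom 1.75).

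Named positions were the ends of the stretch, the 5 highest by each score and end count, the position of smallest p per knock-out, and known modified residues; calls of edgeR, single-concentration ratios and fits with a library left out, C2123, C2061, G1932 and A2412 were named after their values were seen. The members and lists were chosen with earlier results of these data known. Alternatives were DESeq2 1.42.0, other scalings, filters, flanks, added counts, windows and end types, a replicate block, and each replicate left out. Exact tests ran in scipy 1.17.1, tables in pandas 2.3.3 and numpy 2.4.6, and figures in matplotlib 3.10.9, under Python 3.11.15.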

Additional observations from a re-analysis of the deposited data

How the results depend on the processing

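Of 328 alternative values of the counts and shares, 296 kept the direction and stayed within 1.5 times, or kept their side of the threshold. Part of this tally could not have come out otherwise. The exact permutation test of a knock-out against parental cells cannot pass the threshold. The share of 16S 5′ ends in positions 1 to 900 could thus change direction there, but not side. Call counts that were 0 and stayed at 0 are among the 296 too. For these values the tally says little about stability. Where a count moved, the cause was not tested. For protection, leaving out 1 library gave 0 to 1 calls in each knock-out (A1994 without parental replicate 2 in all 3; A2228, higher, without MRM2 knock-out replicate 1; G2471, higher, without MRM3 knock-out replicate 2). The A1994 difference was -0.0836 without parental replicate 2, and its 3′ ends, which run opposite to protection, were higher by 0.34, 0.54 and 0.28 on the log2 scale (edgeR). A minimum median of 50 reads left no position of the 5′ part to test. Without the filter on scores above 0, 314 of the 670 positions were at 0 in all 12 libraries and had no variance.

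RT-stop calls were 2, 7 and 1 with edgeR on stop counts, and in MRM2 knock-out cells 8 with the ratio at 2 μM alone and 2 at 500 μM alone (A2029 and G2143, lower). At 500 μM alone, the denominator of the score, the differences were 0.0419 at A2039, -1.38 at G2143 and 0.35 at A2073. Windows of 50 nt gave 18 of 18 lower in MRM3 knock-out cells at both concentrations. In MRM2 knock-out cells at 500 μM 1 window was called under DESeq2, windows of 50 nt, the 6 libraries alone, or without parental replicate 3 or MRM2 knock-out replicate 1. At 2 μM 1 was called with the library total or 3′ ends, 2 with windows of 50 nt and 3 with DESeq2; in MRM3 knock-out cells 3 were called with the library total. Leave-one-out counts were 0 to 1 in MRM2 and 8 to 9 in MRM3 knock-out cells at 500 μM. For the share of window 1 to 100 in MRM2 knock-out cells, 3′ ends gave 0 calls (log2 difference -0.29), and leaving out 1 library gave 0 to 1 calls and 0.38 to 0.76.

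The share of 16S 5′ ends in positions 1 to 900 reversed in MRM2 knock-out cells at 500 μM without both transcript ends (-0.0844 percentage points). The MRM1 knock-out libraries then overlapped parental, at 40.4% to 42.5% against 39.7% to 40.8%, and the MRM3 knock-out libraries did not. With 3′ ends the MRM3 knock-out libraries overlapped parental, at 34.4% to 36.6% against 33.9% to 34.5%, and the MRM1 knock-out libraries did not. With summed coverage neither line overlapped parental. At 2 μM the leave-one-out range included 0 in MRM1 (-2.38 to 0.0283) and MRM2 knock-out cells (-1.53 to 0.97). RT-stop positions above the plate median numbered 247 to 254 with 1 replicate left out and 243 to 326 under the other alternatives.

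Replicate numbers did not pair the lines: same-numbered deviations correlated at -0.63 to 0.72 at 500 μM, over 0.1 in 5 of 18 pairs, and at -0.72 to 0.85 at 2 μM. A replicate block moved 1 count, from 0 to 1 window in MRM2 knock-out cells at 2 μM. Without the plate block, 7 windows in place of 8 differed between dNTP concentrations. Depth limits the protection scores of MRM2 and MRM3 knock-out libraries and the RT-stop scores in the gap.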
